A study of Mus musculus with 2 samples.

Results

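Aerocytes are the broad, thin capillary endothelial cells of the alveolus, and here they were taken by marker counts from single-cell libraries of whole mouse lung. The gate gave 407 aerocytes of 15695 filtered cells, 194 in the control media (CM) library and 213 in the tumor conditioned media (TCM) library. A cell entered when the endothelial genes Cdh5, Pecam1, Cldn5 and Egfl7 summed to at least 3 unique molecular identifiers (UMIs, each marking 1 captured RNA molecule) and the leukocyte, epithelial and fibroblast genes Ptprc, Epcam and Col1a2 were all at 0. Car4, Ednrb and Apln had to sum to at least 3 UMIs and to more than Gpihbp1, Plvap, Aplnr and Kit together, and the large vessel genes Vwf and Gja5 to at most 1. Aerocytes were thus chosen by their measured counts of these genes, so the levels of those genes describe the choice and are not a finding.

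Both libraries came from lungs of female BALB/c mice, 9 to 10 weeks of age, that had received intravenous injections over 3 weeks. The CM mice had been given medium kept in a dish without tumor, and the TCM mice medium in which pieces of 4T1 tumor, a mouse mammary carcinoma grown in BALB/c mice, had been kept. The TCM mice carried no tumor of their own, so TCM models only what a tumor releases into medium. Each group had 1 library, the number of mice behind a library is not given in the sources used here, and no p-value was computed. All intervals are 95% intervals that cover counting error only, since nothing here measures the spread between mice. Intervals of gene ratios treat each UMI as a separate draw, so they also leave out the spread between cells. In a library of dissociated cells, loss of a cell type during dissociation cannot be told apart from fewer such cells in the tissue.

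The alveolar capillary bed holds a pair of endothelial types. Aerocytes lie against the gas exchange surface and carry the membrane carbonic anhydrase Car4, the endothelin receptor Ednrb and the peptide ligand apelin (Apln), while general capillary cells carry the apelin receptor Aplnr and renew both types after injury. Both respond to vascular endothelial growth factor (VEGF), and the VEGF receptor Kdr is a known marker of aerocytes in mouse lung.

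The libraries as a whole held 31944151 (CM) and 36648719 (TCM) UMIs, and their filtered cells had medians of 2085 and 2346 UMIs. The cell barcodes of 93 filtered cells occurred in both libraries, where independent draws would give 83.5. Aerocytes had a median depth of 2337.5 UMIs in CM (501 to 13986) and 3401 in TCM (505 to 23705). They summed to 646315 UMIs in CM and 890072 in TCM, so TCM levels rest on more counts, and the 10 deepest cells held 17.0% and 15.9% of these sums. The median share of mitochondrial UMIs was 1.62% in CM and 1.57% in TCM. Doublets were not removed, because the doublet caller marked 0 cells in either library at its own threshold. Levels below are UMIs per 100000 UMIs of the class (CP100k).

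The label was checked against aerocyte markers that the gate had not used. Kdr stood at 155 CP100k in CM and 167 in TCM aerocytes, against 37.9 and 41.2 in general capillary cells of the same libraries. These general capillary cells were gated in the mirror image, with Gpihbp1, Plvap, Aplnr and Kit summing to at least 3 UMIs and to more than Car4, Ednrb and Apln, and they numbered 1095 in CM and 1077 in TCM. Kdr was seen in 88.7% of CM and 90.6% of TCM aerocytes, with a median of 3 UMIs per cell (0 to 26) in CM and 5 (0 to 40) in TCM. In cells gated as T cells, which should lack it, the shares were 2.04% of 392 cells and 3.75% of 267, at median depths of 2672 and 2492 UMIs. The T cell gate also required no UMI of Cdh5, Pecam1, Cldn5 or Egfl7. Low shares of endothelial genes in T cells, here and below, were thus partly set by that gate and may understate background.

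Of the other aerocyte markers outside the gate, the membrane protein gene Emp2 stood at 490 CP100k in CM and 487 in TCM, against 87.1 and 85.0 in general capillary cells. The secreted binding protein gene Igfbp7 stood at 816 and 982, against 142 and 162. Tbx2, a T-box transcription factor gene, was at 18.7 and 21.6, against 4.41 and 4.34. Fibin, Chst1, Prx and Rprml had log2 ratios of aerocytes over general capillary cells between 1.44 and 3.95 in both libraries. All 8 of these markers were thus higher in the gated aerocytes of each library, in the direction of the label. This list and that of the general capillary markers were chosen with earlier results of these data known, which limits the check.

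The general capillary markers outside the gate lay the other way. Ptprb, a phosphatase of endothelial junctions, was at 48.6 CP100k in CM and 47.4 in TCM aerocytes, against 191 and 197 in general capillary cells. The chemokine gene Cxcl12 was at 17.8 and 30.2, against 91.9 and 97.8, and the endothelin ligand gene Edn1 at 4.33 and 4.16, against 20.1 and 25.7. The smallest gap was that of the guidance gene Sema3c, whose log2 ratio of aerocytes over general capillary cells was −0.999 in CM and −1.24 in TCM.

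**Figure D1:**
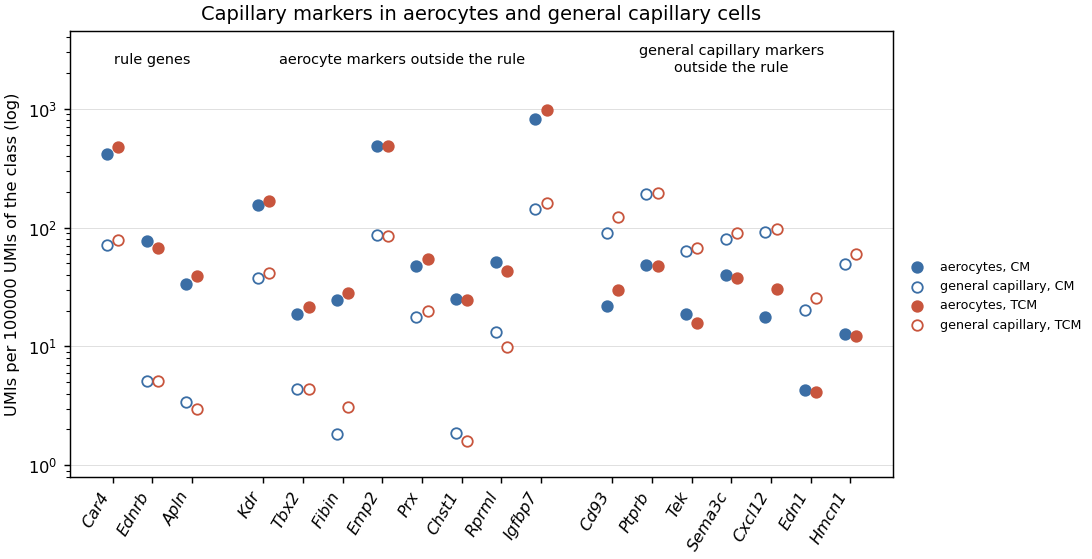
Levels of 18 capillary genes in UMIs per 100000 UMIs of the class (log axis) in aerocytes (filled) and general capillary cells (open) of the CM and TCM libraries. All 8 aerocyte markers outside the gate lie higher in aerocytes of both libraries, Kdr at 155 and 167 against 37.9 and 41.2, and all 7 general capillary markers lie lower.

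Aerocytes differed widely among themselves in the gate genes. Car4 was detected in 192 CM and 212 TCM aerocytes, missing only 2 and 1, and its median count per cell was 8 (0 to 58) and 16 (0 to 85). Ednrb was detected in 147 CM and 167 TCM cells, and its median count per cell was 2 in each library. Apln, the ligand gene, was detected in 93 CM cells (47.9%) and 133 TCM cells (62.4%). Once every cell was thinned to 1000 UMIs, with 26 shallower aerocytes left out in each library, Apln was detected in 29.2% of CM and 29.9% of TCM aerocytes. All 3 genes together were detected in 78 CM cells (40.2%) and 109 TCM cells (51.2%), at the cells' own depth.

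Counts of the general capillary genes separated aerocytes further. No UMI of Gpihbp1, Plvap, Aplnr or Kit was seen in 87 CM aerocytes (44.8%) and 91 TCM aerocytes (42.7%). In 126 CM (64.9%) and 149 TCM aerocytes (70.0%) these genes summed to at most 25% of Car4, Ednrb and Apln. The remaining 68 CM and 64 TCM aerocytes lay nearer to the boundary, with median depths of 2170 (CM) and 5415 UMIs (TCM). In them Kdr was at 90.4 CP100k (CM) and 112 (TCM), against 201 and 212 in the stricter cells. Emp2 was at 343 and 361 against 596 and 587, and Cxcl12 at 36.9 and 54.9 against 3.996 and 10.5. The cells near the boundary thus had intermediate levels of Kdr, Emp2 and Cxcl12, which the gate did not use. Tbx2 was also intermediate in them, at 9.965 (CM) and 11.9 (TCM). Lyve1, a lymphatic endothelial marker outside the gate, was at 15.1 near the boundary against 16.8 in the stricter cells of CM. In TCM it was at 37.7 against 18.4, so its direction differed between the libraries. Whether some cells near the boundary were doublets was not tested beyond the doublet scores.

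At the lower bound of the gate, 15 CM and 17 TCM aerocytes had exactly 3 UMIs of Car4, Ednrb and Apln, with median depths of 1041 and 702 UMIs. Just outside it, 19 CM and 14 TCM cells met every other condition with 2 UMIs, with median depths of 770 and 727.5. Kdr was at 102 and 105.2 CP100k in the cells just inside and at 101 and 129 in those just outside. A further 9 CM and 8 TCM cells were left out because both capillary sums were equal.

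**Figure D2:**
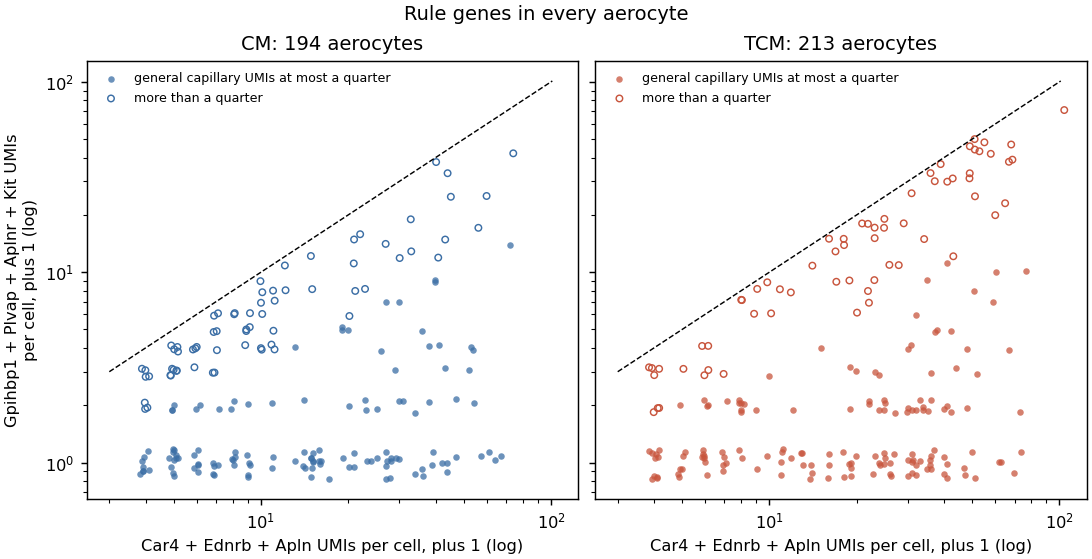
Each point is 1 aerocyte, with its Car4, Ednrb and Apln UMIs plus 1 on the x axis and its Gpihbp1, Plvap, Aplnr and Kit UMIs plus 1 on the y axis (both log, points jittered), for 194 CM and 213 TCM cells. Filled points, 126 in CM and 149 in TCM, have general capillary UMIs of at most 25% of the aerocyte UMIs, and the dashed line marks equal sums.

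Aerocytes made up 2.43% of the filtered CM cells (194 of 7988, exact Clopper-Pearson interval 2.10 to 2.79%) and 2.76% of the TCM cells (213 of 7707, 2.41 to 3.16%). The ratio of TCM over CM was 1.14, with an interval from 0.939 to 1.38. Among cells that passed the endothelial conditions alone, aerocytes were 10.9% in CM (194 of 1776, 9.51 to 12.5%) and 12.97% in TCM (213 of 1642, 11.4 to 14.7%). That ratio was 1.19 (0.990 to 1.43). Both intervals include 1, but this depended on the setting. With at least 5 UMIs of Car4, Ednrb and Apln in the gate the ratios were 1.26 (1.02 to 1.55) among filtered and 1.31 (1.07 to 1.605) among endothelial-gated cells, and with at most 5% mitochondrial UMIs they were 1.22 (1.001 to 1.49) and 1.26 (1.04 to 1.52). Among endothelial-gated cells alone the interval also lay above 1 for cells thinned to 1000 UMIs before gating, at 1.29 (1.06 to 1.58), and for the stricter aerocytes, at 1.28 (1.02 to 1.61). General capillary cells were 61.7% and 65.6% of the endothelial-gated cells, a ratio of 1.06 (1.01 to 1.12). Cells in neither capillary gate were 27.4% and 21.4%, a ratio of 0.782 (0.694 to 0.881). Both capillary classes thus had a larger share of the endothelial-gated cells in TCM.

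The next values describe which genes set aerocytes apart from general capillary cells, a contrast that the gate itself fixed. Of 10794 genes with at least 30 UMIs over both classes and libraries, 295 were at least 2-fold higher in aerocytes in both libraries (2.73%) and 397 at least 2-fold lower (3.68%). No test was made and nothing is read from these shares. Among the 15 genes with the highest ratios were Alpl, alkaline phosphatase, at 17.2 CP100k in CM and 16.1 in TCM aerocytes against 0.872 and 1.34 in general capillary cells, and Chst1, a carbohydrate sulfotransferase gene, at 25.2 and 24.8 against 1.85 and 1.61. Fibin, a secreted factor gene, was at 24.6 and 28.0 against 1.82 and 3.12.

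Rspo3, a secreted amplifier of Wnt signals, had log2 ratios of 3.46 in CM and 3.25 in TCM from 33 and 35 aerocyte UMIs. Tnfrsf11b, a soluble decoy receptor for the ligand RANKL, had 3.19 and 4.28 from 29 and 38 UMIs. C1qtnf2, a C1q and TNF related protein gene, had 3.20 and 3.14 from 105 and 142 UMIs. The remaining leaders were Fndc1, Lmntd1, Ccdc184, Adamtsl5, Pcdhac2, D630045J12Rik, the noncoding RNA genes AW112010 and Gm40639, and Tbx3os1, antisense to the transcription factor gene Tbx3. Reads of Tbx3os1 and Tbx3 may be shared where the genes overlap.

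Further genes of the vascular lists that were higher in aerocytes of both libraries included Tbx3, with log2 ratios of 1.87 in CM and 1.65 in TCM. Cd34 had 2.05 and 2.02, the VEGF co-receptor gene Nrp1 1.68 and 1.20, Pdgfb, a growth factor for pericytes, 1.36 and 1.254, and Timp3, an inhibitor of matrix proteases, 1.17 and 1.12. At the low end, the gene for the lymphatic chemokine Ccl21a (1 copy, taken by its identifier) had 0 UMIs in aerocytes against 13.2 and 13.4 CP100k in general capillary cells, and near-identical copies of it make this value uncertain. The complement gene C1qa had 0 UMIs in CM and 2 in TCM aerocytes. It was also rare in general capillary cells, detected in 0.365% of CM and 1.76% of TCM cells, against 0% and 0.939% of aerocytes. Ackr4, a scavenging chemokine receptor gene, had 3 and 2 UMIs, and Nhsl1 1 and 1.

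Treatment was compared next, as TCM over CM within aerocytes. With 1 library per group, treatment cannot be told apart from a difference between the libraries in dissociation, handling or sequencing. This holds for every ratio of TCM over CM below, those of chaperones and immediate early genes included. Of 6461 genes with at least 30 UMIs over both libraries, 78 were at least 2-fold higher in TCM aerocytes (1.21%) and 77 at least 2-fold lower (1.19%). The median log2 ratio was 0.01, and 86.4% of the genes lay within 1.5-fold of equal levels. Most genes past 2-fold had few counts: 72 of the 78 higher and 65 of the 77 lower genes had under 100 UMIs. Among the 2772 genes with at least 100 UMIs, 6 were at least 2-fold higher and 12 at least 2-fold lower. Aerocyte profiles of both libraries were therefore close for most genes with enough counts to compare.

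**Figure D3:**
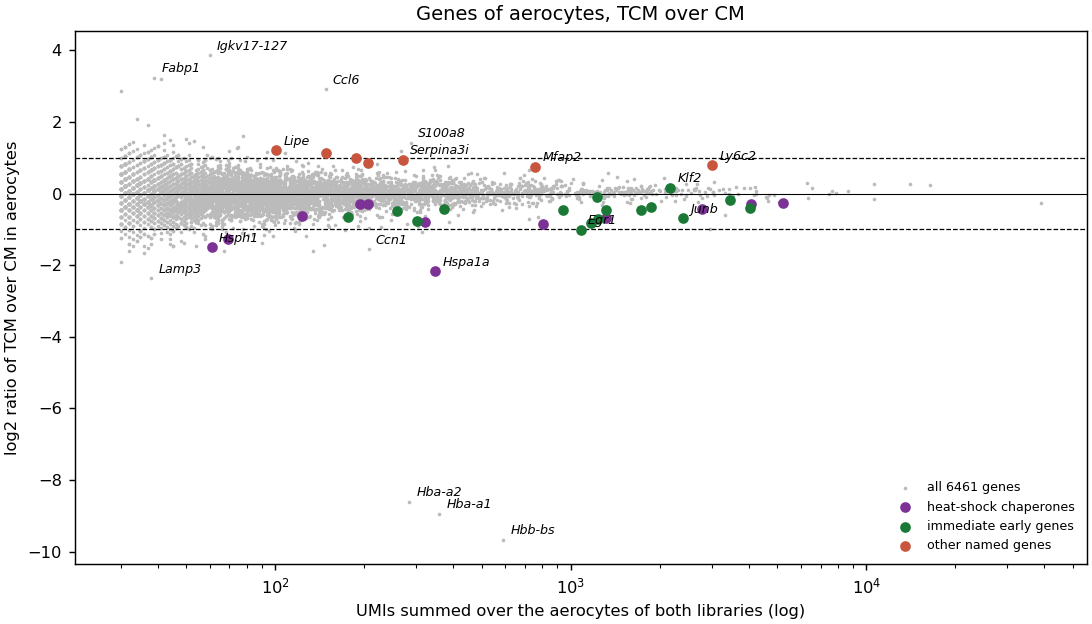
The log2 ratio of TCM over CM in aerocytes (y axis) against the UMIs summed over both libraries (x axis, log) for 6461 genes, with dashed lines at 2-fold. The median is 0.01, the spread narrows with counts, and Hspa1a at −2.16 lies apart from the other heat-shock chaperone genes, while the 3 hemoglobin genes between −9.66 and −8.61 come from 1 CM cell.

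The genes that mark aerocytes were nearly level. Over the 8 aerocyte markers outside the gate, all with at least 30 UMIs, none was past 2-fold, and their ratios of TCM over CM had a median of 0.15 on the log2 scale, beside 0.01 over all genes. Single values ran from −0.24 (−0.45 to −0.02) for Rprml to 0.27 (0.22 to 0.32) for Igfbp7. Kdr had 0.11, Tbx2 0.20, Emp2 −0.01 and Chst1 −0.02. Among the genes at least 2-fold higher in aerocytes than in general capillary cells, 229 had enough counts, with a median of 0.03, 3 at least 2-fold higher in TCM and 0 lower, beside 1.21% higher and 1.19% lower over all genes. The 7 general capillary markers outside the gate had a median of −0.06 in aerocytes, with none past 2-fold. Among them Cxcl12, which recruits leukocytes and progenitors, was higher at 0.76 (0.44 to 1.09), from 115 UMIs in CM and 269 in TCM. In the stricter aerocytes its level was 3.996 CP100k (CM) and 10.5 (TCM).

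Heat-shock chaperones refold damaged proteins and are switched on by heat, oxidants and tissue handling through heat-shock factors bound to their promoters. All 12 chaperone genes on the list had a lower level in TCM than in CM aerocytes, 3 of them by at least 2-fold. Of all 6461 genes, 3166 were lower, 77 (1.19%) of them by at least 2-fold. The median log2 ratio of the 12 chaperone genes was −0.65, and −0.42 in general capillary cells. Hspa1a, an inducible Hsp70 gene, was the furthest apart, at 41.2 CP100k in CM against 9.21 in TCM, or −2.16 as a log2 ratio (−2.54 to −1.80). It was detected in 84 of 194 CM aerocytes (43.3%, 36.2 to 50.6%) and in 30 of 213 TCM aerocytes (14.1%, 9.71 to 19.5%), although TCM cells were deeper. After thinning to 1000 UMIs the shares were 20.8% and 6.42%.

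Counts of Hspa1a per cell ran from 0 to 32 UMIs in CM and from 0 to 16 in TCM, so the libraries overlapped in range. The 10 cells with most Hspa1a held 46.2% of its UMIs in CM and 69.5% in TCM. T cells of the same libraries had it in 12.2% (CM) and 11.6% (TCM) of cells, and the TCM aerocyte share lay close to theirs. Most other chaperone genes on the list were also detected in a smaller share of TCM than of CM T cells. Hspa8 was seen in 91.1% of CM and 80.15% of TCM T cells, Dnaja1 in 63.5% and 55.4%, and Hspd1 in 37.8% and 27.7%. Hspa1b alone went the other way, at 8.16% and 8.24%. After thinning, Hspa8 had 81.7% and 74.9%, and Dnaja1 36.6% and 31.05%. The cause was not tested. In general capillary cells the log2 ratio of Hspa1a was −0.98 (−1.15 to −0.82), and the difference of the aerocyte ratio from it was −1.18 (−1.57 to −0.78). Hspa1b, its near-identical neighbour, had 44 UMIs in CM and 25 in TCM (−1.28, −2.05 to −0.54), and reads of the pair may be split between them. Hsph1, an exchange factor for Hsp70, had 41 and 20 UMIs (−1.497, −2.35 to −0.69).

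The other chaperone genes were less far apart. Hsp90aa1, the inducible Hsp90 gene, was at 70.7 CP100k in CM and 39.0 in TCM (−0.86, −1.06 to −0.65). Dnajb1, a co-chaperone of Hsp70, had −0.79 (−1.12 to −0.46) and Dnaja1 −0.67 (−0.83 to −0.52). The small chaperone gene Hspb1, which was also higher in aerocytes than in general capillary cells (log2 1.64 and 1.68), had −0.43 (−0.53 to −0.32). The constitutive genes Hspa8 and Hsp90ab1 had −0.30 (−0.39 to −0.21) and −0.26 (−0.34 to −0.18). Hspe1 had −0.63. The intervals of Hspd1 (−0.28, −0.70 to 0.14) and the co-chaperone gene Bag3 (−0.29, −0.70 to 0.12) included 0.

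The promoters of the 3 genes past 2-fold, and of Hspb1, are shown because these genes share a known regulator, the heat-shock factor. RefSeq windows on build GRCm38.p6, from 250 bases before to 50 after a gene's start, were searched for the core of the heat-shock element, GAANNTTC and TTCNNGAA. Each motif reads the same on both strands, and neighbouring matches may overlap. Capitals mark the matches. Hspa1a lies at chr17:34972107-34972406, Hspa1b at chr17:34959189-34959488 and Hsph1 at chr5:149636287-149636586, all on the minus strand, and Hspb1 at chr5:135887669-135887968 on the plus strand, each written 5′ to 3′.
Hspa1a: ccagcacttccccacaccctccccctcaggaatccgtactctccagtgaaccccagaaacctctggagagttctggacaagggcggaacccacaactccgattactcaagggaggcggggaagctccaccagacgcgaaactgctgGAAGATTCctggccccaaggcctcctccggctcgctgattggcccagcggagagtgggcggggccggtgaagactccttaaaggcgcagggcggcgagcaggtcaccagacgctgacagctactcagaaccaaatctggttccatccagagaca
Hspa1b: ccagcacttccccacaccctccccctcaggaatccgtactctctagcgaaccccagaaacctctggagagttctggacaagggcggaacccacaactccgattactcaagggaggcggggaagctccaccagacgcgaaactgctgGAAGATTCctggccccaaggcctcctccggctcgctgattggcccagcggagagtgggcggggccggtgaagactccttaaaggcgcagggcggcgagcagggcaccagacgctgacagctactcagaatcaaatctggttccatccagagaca
Hsph1: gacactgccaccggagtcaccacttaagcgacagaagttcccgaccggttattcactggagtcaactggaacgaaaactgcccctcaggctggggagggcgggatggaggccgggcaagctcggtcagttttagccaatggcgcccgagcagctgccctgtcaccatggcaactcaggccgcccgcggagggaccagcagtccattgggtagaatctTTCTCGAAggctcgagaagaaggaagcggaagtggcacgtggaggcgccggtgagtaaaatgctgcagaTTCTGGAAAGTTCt
Hspb1: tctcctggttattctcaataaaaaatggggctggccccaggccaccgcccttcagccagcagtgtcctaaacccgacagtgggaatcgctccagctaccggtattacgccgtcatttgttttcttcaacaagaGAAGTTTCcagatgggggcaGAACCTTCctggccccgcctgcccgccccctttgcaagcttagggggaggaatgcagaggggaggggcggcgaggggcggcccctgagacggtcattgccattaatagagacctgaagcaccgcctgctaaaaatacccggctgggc
The Hspa1a and Hspa1b windows were identical at 296 of 300 positions (98.7%) and held 1 match each, starting 104 bases before the start. The Hsph1 window, the first of 2 in the table, held 3 matches and that of Hspb1 2. Of the 12 chaperone genes, 9 had a window in the table, and 8 of these had a match in at least 1 window, the exception being Dnajb1. By single windows, 9 of 14 chaperone windows (64.3%) held either motif, and 15.1% of all 32851 windows. The chaperone windows were not all separate, so the same matches were counted more than once. The 2 Hsph1 windows overlapped, and a window of Hspe1 and 1 of Hspd1 held the same matches on opposite strands. These matches describe letters in the windows and do not show binding.

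Immediate early genes encode transcription factors and feedback regulators that rise within minutes of a stimulus, tissue dissociation included. Of the 16 on the list, 15 had a lower level in TCM aerocytes and 1, Egr1, was at least 2-fold lower, beside 3166 and 77 (1.19%) of all 6461 genes. The median log2 ratio was −0.46, against −0.03 for the same genes in general capillary cells. Egr1 was at 99.3 CP100k in CM and 49.4 in TCM (−1.01, −1.18 to −0.83), and −0.02 in general capillary cells. It was no longer past 2-fold with cells weighted equally (−0.66), after thinning (−0.67) or without the top 6% of doublet scores (−0.999). It was detected in 40.7% of CM and 36.6% of TCM aerocytes, with counts per cell from 0 to 53 and from 0 to 36 UMIs, and after thinning in 36.3% and 24.6%. The 10 cells with most Egr1 held 50.9% of its UMIs in CM and 48.0% in TCM.

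Other members of the list lay between. Atf3, a stress-induced repressor gene, was at 102 CP100k in CM and 57.6 in TCM (−0.82, −0.99 to −0.65). The AP-1 subunit genes Fos and Junb had −0.71 (−0.87 to −0.55) and −0.68 (−0.80 to −0.56), and Jun and Jund −0.41 and −0.37. Socs3, a feedback inhibitor of cytokine signals, had −0.77 (−1.11 to −0.43), while in general capillary cells it had 0.29. The flow-responsive factor gene Klf2 was the exception to the direction, at 0.17 (0.05 to 0.30), and Klf4 had −0.10 (−0.26 to 0.07). The median of this list moved to −0.25 when aerocytes were weighted equally or thinned to 1000 UMIs, and to −0.37 in the stricter aerocytes.

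**Figure D4:**
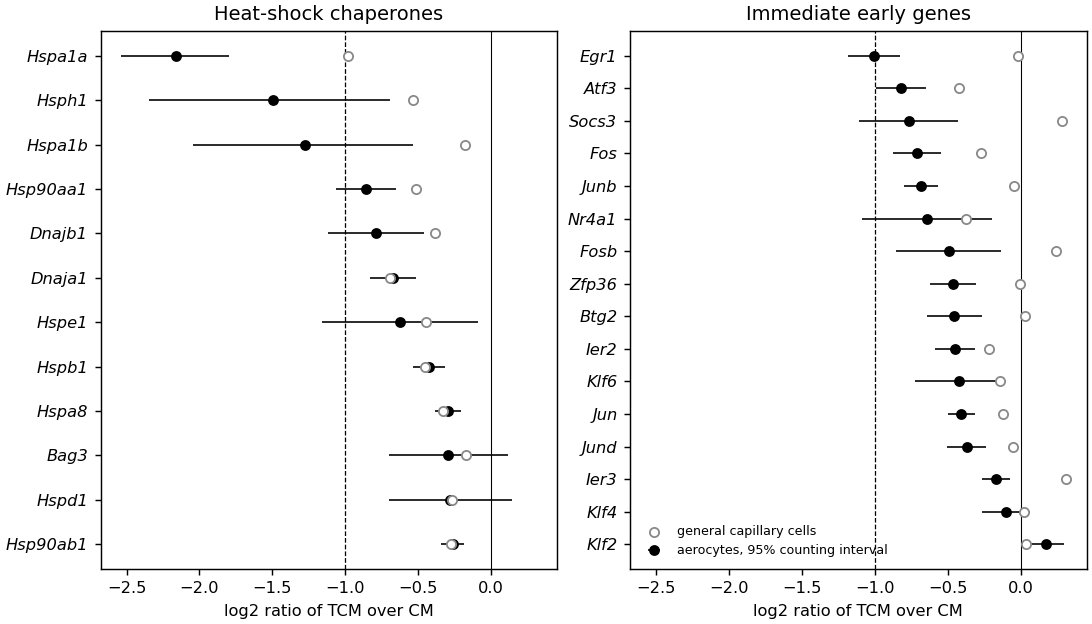
The log2 ratio of TCM over CM for each gene of the heat-shock chaperone list (left) and the immediate early gene list (right), in aerocytes (black, with 95% counting intervals) and in general capillary cells (open). All 12 chaperone genes and 15 of the 16 immediate early genes lie below 0 in aerocytes, with Hspa1a at −2.16 and Egr1 at −1.01, and the dashed line marks 2-fold lower.

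Further genes outside these lists had lower levels in TCM aerocytes. Ccn1, a secreted matricellular protein gene, had 141 UMIs in CM and 66 in TCM (−1.56, −2.00 to −1.12), and −0.94 in general capillary cells. Ppp1r15a, which restores translation after stress, was at 52.3 CP100k in CM and 26.4 in TCM (−0.99, −1.23 to −0.74), and Phlda1 at 43.2 and 21.7 (−0.99, −1.27 to −0.72). Marcksl1, an actin-regulating gene, had 92 and 42 UMIs (−1.59, −2.16 to −1.05) against −0.03 in general capillary cells. Mt1, a metal-binding metallothionein gene, had 189 and 124 UMIs (−1.07, −1.41 to −0.74) against 0.72 in general capillary cells, with 84.1% and 83.9% of its UMIs in 10 cells of each library. AY036118, a ribosomal RNA related gene, had −0.999 in aerocytes and −0.83 in general capillary cells, and its level in free RNA was 839 CP100k in CM and 1374 in TCM.

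Ly6c2, a surface protein gene of the Ly6 family, was among the 15 genes furthest above equal levels in TCM aerocytes by the lower bound of the interval, with 893 UMIs in CM and 2123 in TCM. At 138 CP100k in CM and 239 in TCM, its log2 ratio was 0.79 (0.67 to 0.90), and that of general capillary cells was 0.999 (0.92 to 1.08). It was detected in 79.9% of CM and 91.1% of TCM aerocytes, and after thinning in 65.5% and 84.0%, while T cells had it in 15.6% and 14.98%. Its near-identical neighbour Ly6c1 may share reads with it. Mfap2, a microfibril protein gene, was at 35.3 CP100k in CM and 59.5 in TCM (0.76, 0.53 to 0.99), and at 0.71 in general capillary cells. It was detected in 53.1% and 72.3% of aerocytes, or in 29.2% and 37.4% after thinning, and in 1.53% and 1.12% of T cells.

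Several genes with fewer counts were spread over many cells. Serpina3i, a protease inhibitor of a family with near-identical copies, had 74 UMIs in CM and 197 in TCM (0.95, 0.56 to 1.36), in 37 and 89 cells. Zbtb16, a transcription factor gene induced by glucocorticoids, had 50 and 137 UMIs (0.99, 0.52 to 1.49), in 36 and 82 cells. Vsir, an immune checkpoint protein gene, had 37 and 111 UMIs (1.12, 0.57 to 1.70), in 35 and 77 cells. Lipe, the hormone-sensitive lipase gene, had 24 and 77 UMIs (1.22, 0.54 to 1.95), in 19 and 54 cells. For each of these 4 genes the ratio in general capillary cells had the same sign, between 0.72 and 1.19, and the interval of the difference between the classes included 0.

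Dhrs3, a retinaldehyde reductase gene, had 59 UMIs in CM and 147 in TCM (0.86, 0.41 to 1.32), against 0.33 in general capillary cells. Kdm2a, a histone demethylase gene, had 17 and 57 UMIs (1.28, 0.48 to 2.16) against −0.32, a difference of 1.60 (0.77 to 2.43). Tyw1, a tRNA modification gene, had 6 and 31 UMIs (1.91, 0.62 to 3.46) against −0.07, and Ptpru, a receptor phosphatase gene, 5 and 29 (2.07, 0.69 to 3.80) against 0.86. The retinoic acid hydroxylase gene Cyp26b1 had 1 UMI in CM and 26 in TCM aerocytes, under the minimum of 30, and a ratio of 4.24 (1.63 to 9.60), while general capillary cells had a ratio of 4.27. Its level in aerocytes was low in both libraries, at 0.155 and 2.92 CP100k, and the TCM share of aerocytes with a UMI was 8.92% against 0.749% of T cells. Its level in free RNA was 0.287 CP100k in CM and 6.03 in TCM.

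The lists for capillary functions showed few genes past 2-fold, beside 1.21% higher and 1.19% lower over all genes. In VEGF, angiopoietin and apelin signalling, 9 of 16 genes had enough counts, none was past 2-fold and the median was 0.05. The receptors Kdr, Flt1, Flt4 and Tie1 had 0.11, 0.14, 0.16 and 0.09, the co-receptor Nrp1 −0.23 (−0.37 to −0.08) against 0.26 in general capillary cells, and the ligands Pdgfb and Vegfa −0.01 and 0.05. Among endothelin and vasoactive genes, 8 of 12 were compared with a median of 0.10. The receptor gene Calcrl had 0.44 (0.31 to 0.57), its partner Ramp2 0.27 (0.21 to 0.32), and Ace, angiotensin converting enzyme, 0.41 (0.26 to 0.56), close to the 0.41, 0.15 and 0.27 of general capillary cells.

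Of the carbonic anhydrase, water and ion transport genes 6 of 10 were compared, with a median of 0.09 and none past 2-fold. The water channel gene Aqp1 had 0.04, the chloride channel gene Clic5 −0.08, and the cytosolic carbonic anhydrase gene Car2 −0.92 (−1.41 to −0.44). For coagulation and fibrinolysis the median over 6 of 10 genes was 0.42, the highest of the capillary lists, and all 6 lay above 0 with none past 2-fold. Thbd, which encodes the anticoagulant receptor thrombomodulin, was at 55.4 CP100k in CM and 74.0 in TCM (0.42, 0.23 to 0.61), and Anxa2 had 0.43 (0.20 to 0.66). In general capillary cells the same genes had a median of 0.20.

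Among leukocyte adhesion and junction genes, 10 of 14 were compared with a median of 0.08. Icam1, a leukocyte ligand, had −0.31 (−0.47 to −0.15), but 0.19 once aerocytes were thinned. Icam2 had 0.20 (0.11 to 0.29) and Podxl 0.44 (0.23 to 0.66), while Vcam1 had 7 UMIs in CM and 8 in TCM. Basement membrane and matrix genes had a median of 0.08 over 10 of 15, with the collagen IV chains Col4a1 and Col4a2 at 0.36 (0.16 to 0.56) and 0.51 (0.28 to 0.74). The 13 genes of BMP and TGF-beta signalling had a median of 0.09, with the co-receptor Eng at 0.24 and the inhibitor Smad7 at −0.46 (−0.79 to −0.13). Notch genes had −0.03 over 7 of 9, and endothelial transcription factors −0.01 over 13 of 13, with Sox17 at −0.72 (−1.32 to −0.13). None of these 5 lists had a gene past 2-fold.

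Interferon-stimulated genes had a median of −0.08 over 20 of 24 and none past 2-fold, with Irf1 at −0.66 (−0.86 to −0.45), Irf7 at −0.95 (−1.67 to −0.24) and Ly6e at 0.31 (0.23 to 0.38). Genes of MHC class I presentation had −0.14 over 14 of 15, from −0.46 for H2-Q4, which has near-identical copies, to 0.35 for Erap1. Those of class II, known from professional antigen-presenting cells and also seen in capillary cells, had −0.45 over 4 of 7, with all 4 intervals below 0, and −0.88 in general capillary cells. In the stricter aerocytes their median was 0.42. Chemokines and their receptors had a median of 0.23 over 8 of 15. Ccl2 had 18 UMIs in CM, all in 2 cells, and 0 in TCM. The shares of aerocytes with it were 1.03% (0.125 to 3.67%) in CM and 0% (0 to 1.72%) in TCM. Innate sensing and acute-phase genes had a median of −0.07 over 10 of 15, with the adaptor Myd88 at least 2-fold lower, at 25 and 13 UMIs (−1.41, −2.495 to −0.38). Fatty acid uptake and handling had 0.08 over 11 of 22, with Fabp5 and Scd1 at least 2-fold higher. Over all genes, 1.21% were at least 2-fold higher and 1.19% lower. The transporter gene Cd36 had 0.08 (−0.05 to 0.21) and Plin2, of the lipid droplet coat, 0.28 (−0.18 to 0.74), while Fabp5 had 9 and 35 UMIs (1.498, 0.41 to 2.74), 88.6% of the TCM UMIs in 10 cells. Scd1, a desaturase gene, had 8 and 28 UMIs (1.35, 0.17 to 2.69), in 8 and 6 cells, and −1.14 in the stricter aerocytes.

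Glucocorticoid-induced genes had a median of −0.05 over 10 of 12, with Mt1 past 2-fold lower, beside 1.19% of all genes. Zbtb16 and Tsc22d3 (0.43, 0.12 to 0.74) lay above 0, and Nr3c1, the receptor gene, had −0.38 (−0.71 to −0.05). Glycolysis and hypoxia genes had −0.0026 over 10 of 14, and 1 of 12 cell cycle genes had enough counts. Circadian clock genes had −0.35 over 3 of 16. Retinoic acid genes had 0.09 over 5 of 17, with the receptor gene Rara at −0.54 (−0.99 to −0.10).

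RNA of other cell types was present among the aerocytes, and its amount differed between the libraries. The neutrophil markers, a list of 5 genes that includes S100a8 and S100a9, summed to 42.2 CP100k in CM and 73.5 in TCM, and 15 CM and 39 TCM aerocytes had at least 3 of their UMIs. Of the list's UMIs, 1 CM aerocyte held 161 of 273 and 1 TCM aerocyte 137 of 654. S100a8 had 61 and 226 UMIs (1.43, 1.01 to 1.86) and was detected in 9.79% of CM and 39.9% of TCM aerocytes. T cells of the same libraries had it in 4.59% and 47.2% of cells. Whether the TCM aerocyte share came from background or from aerocytes was not tested. Ccl6, a chemokine of myeloid cells, had 13 and 135 UMIs (2.92, 2.09 to 3.86) and was detected in 14.1% of TCM aerocytes and 14.2% of TCM T cells. Its level in free RNA, taken from droplets of at most 50 UMIs, was 43.5 CP100k in CM and 69.6 in TCM.

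Single cells carried other values. The hemoglobin genes Hbb-bs, Hba-a1 and Hba-a2 had ratios between −9.66 and −8.61, and 1241 of the 1250 hemoglobin UMIs of CM aerocytes came from 1 cell. The antibody gene Igkv17-127 had 60 UMIs in 1 TCM cell, Ighv3-8 30 in 1 TCM cell, and Fabp1 39 in 5 TCM cells. Slpi, a protease inhibitor of airway and myeloid cells, had 3 and 38 UMIs, in 3 and 6 cells. Inmt, a fibroblast gene, had 64 and 202 UMIs (1.20, 0.78 to 1.63), with 85.1% of the TCM UMIs in 10 cells, and −0.41 after thinning.

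Alveolar type II markers summed to 318 CP100k in CM and 213 in TCM, led by the surfactant gene Sftpc at −0.60 (−0.70 to −0.50), and 67 and 168 aerocytes had at least 3 of their UMIs. Of these UMIs, 1 CM aerocyte held 728 of 2055 and 1 TCM aerocyte 792 of 1897. The median per aerocyte was 2 UMIs in CM and 4 in TCM, so the sums rest heavily on single cells. The median log2 ratio of the type II markers was −0.43 over 6 genes, but 0.86 in the stricter aerocytes. Sftpc was detected in 77.6% of CM and 95.1% of TCM T cells against 84.0% and 93.9% of aerocytes. Markers of pericytes and smooth muscle summed to 35.4 and 18.7, with Gucy1a1 at −1.45, and 13 and 9 aerocytes had at least 3 UMIs of the list. The matrix gene Postn, outside these lists, had −1.39. In the stricter aerocytes Gucy1a1 had 1.34 and Postn 1.41, the opposite direction. Club cell markers summed to 220 and 240, alveolar type I markers to 327 and 354, and fibroblast markers to 16.9 and 28.3. The type I list includes Hopx and Clic5, which were higher in aerocytes than in general capillary cells of both libraries, with log2 ratios for Hopx of 0.94 and 1.28. B cell markers summed to 7.58 and 8.99, T cell markers to 1.39 and 3.03, monocyte and macrophage markers to 28.8 and 42.5, and lymphatic markers, which include Lyve1 (0.74, 0.41 to 1.09), to 18.4 and 27.7. Single aerocytes weighed on some of these sums. For B cell markers 1 cell held 9 of 49 UMIs in CM and 53 of 80 in TCM. For monocyte and macrophage markers these counts were 64 of 186 and 160 of 378, and for fibroblast markers 21 of 109 and 87 of 252. Artery and vein markers outside the gate summed to 58.5 and 56.3, with a median log2 ratio of 0.03 over 6 of 13 genes, and mesothelial markers had 4 UMIs in CM and 0 in TCM. The part of this RNA in the ratios of other genes was not tested beyond subtracting an estimate of free RNA. By that estimate a CM aerocyte held 216 and a TCM aerocyte 308 free UMIs, or 6.49% and 7.38% of its UMIs.

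**Figure D5:**
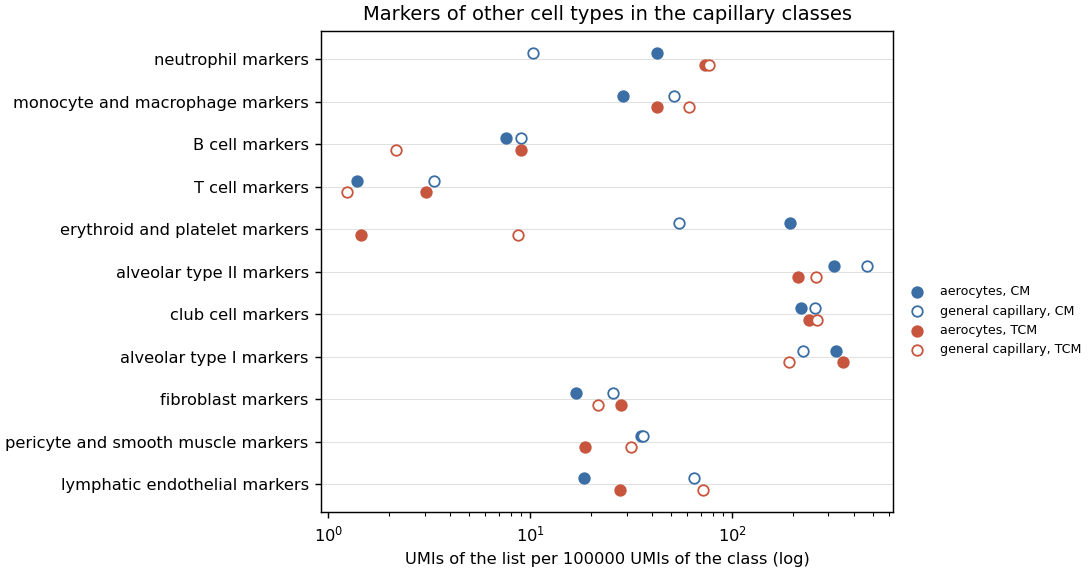
Summed levels of 11 lists of markers of other cell types, in UMIs per 100000 UMIs of the class (log axis), in aerocytes (filled) and general capillary cells (open) of both libraries. Neutrophil markers are higher in TCM in both classes (42.2 and 73.5 in aerocytes, where 1 CM cell held 161 of 273 UMIs). The erythroid value of 194 in CM aerocytes comes almost wholly from 1 cell.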

How the data were processed

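Single cells of whole lung were captured with a 10x 5′ kit in 1 library per group. The authors counted unique molecular identifiers with Cell Ranger (version 4 in the file header) on mm10, GRCm38.p6, and the deposited UMI counts covered all barcodes with no cell filter. Cells were kept with at least 500 UMIs, at least 200 genes and at most 10% mitochondrial UMIs. UMIs were summed over the aerocytes of a library and scaled to 100000 UMIs of the class. Ratios of sums were given with 95% intervals from the binomial distribution of 1 library's count given the total, shares with exact Clopper-Pearson intervals, ratios of shares with Katz intervals, and differences of log2 ratios with normal intervals from the counts. All cover counting error only. Genes with at least 30 summed UMIs were compared, leaving out the gate genes and mitochondrial genes, and a point ratio of 2 was the threshold.

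The aerocytes, the 37 gene lists (401 entries, 3 of them matched by no single symbol) and the rules were chosen with earlier results of these data known. Named genes were the 15 highest and 15 lowest ratios of TCM over CM ranked by the interval bound nearest 0, up to 4 genes per list with the largest ratios, the 15 highest and 10 lowest ratios of aerocytes over general capillary cells, the 10 largest differences between the classes in each direction, and the capillary markers. Other genes of the lists, among them chaperones and immediate early genes, were named after their values were seen. T cells were gated by at least 1 UMI of Ptprc and at least 2 of Cd3e, Cd3d and Trac together. They also had no UMI of Cdh5, Pecam1, Cldn5 or Egfl7. Free RNA was estimated from droplets of at most 50 UMIs, with its amount set by 7 erythroid, club cell and surfactant genes. Scrublet in scanpy 1.11.5 marked 0 cells, so the cells in the top 6% of its scores were left out as an alternative. Statistics used numpy 2.4.6, scipy 1.17.1 and pandas 2.3.3, and scripts were tested on simulated data. Values of 1 listed gene are not reported here.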

Additional observations from a re-analysis of the deposited data

How the results depend on the processing

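No paired analysis was possible because each group had 1 library, and for the same reason no library could be left out. The ratio of aerocyte shares, TCM over CM, ranged from 1.105 to 1.26 among filtered cells and from 1.15 to 1.31 among endothelial-gated cells. Its interval lay above 1 in 2 of 6 alternatives among filtered cells and in 4 of 6 among endothelial-gated cells, though not at the reported setting. The median over heat-shock chaperones stayed between −0.71 and −0.51 and the ratio of Hspa1a between −2.84 and −2.04 under the alternatives run. Counts of genes past 2-fold depended on the setting. In place of 78 higher and 77 lower genes, there were 182 and 209 when cells were weighted equally, 27 and 37 after thinning, 123 and 133 after subtracting free RNA, 6 and 12 with at least 100 UMIs, and 383 and 371 with at least 10. The stricter aerocytes, an alternative chosen after seeing the data, gave 51 lower genes. Fewer genes were compared with thinned cells and with at least 100 UMIs, and for the others the cause was not tested. Of the 78 and 77 genes, 2 and 6 were also past 2-fold after thinning. The median of general capillary markers was −0.30 with cells weighted equally. That of immediate early genes was −0.25 so weighted and −0.25 after thinning, and −0.37 in the stricter aerocytes.

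These values changed direction, and the cause was not tested. In the stricter aerocytes the medians were 0.86 for alveolar type II markers and 0.42 for MHC class II, and ratios were 1.34 for Gucy1a1, 1.41 for Postn, 0.94 for Sftpc and −1.14 for Scd1. Leaving out aerocytes with other-lineage UMIs, also chosen after seeing the data, gave 0.18 for alveolar type II markers, −0.78 for Inmt and 0.86 for Postn. Thinning gave −0.41 for Inmt and 0.19 for Icam1, which had 0.23 with cells weighted equally. Subtracting free RNA gave −0.017 for S100a8 and −0.91 for S100a9, which had −0.77 without the top 6% of doublet scores and −0.14 with at least 5 aerocyte UMIs. The depth of 194 and 213 aerocytes limits single genes to those with at least 30 UMIs.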
